A study of Rattus norvegicus with 6 samples.

Results

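Histone protein genes were taken from the deposited table by their names and descriptions: 53 of 22250 rows matched, and 2 of these were left out because they encode no histone, the kinase gene Haspin and the transcription factor gene Hinfp. The remaining 51 genes comprised 6 replacement genes and 45 others, counted here as replication-dependent. Of the 45, 29 carry a clustered-histone name or description; the other 16 are described only as a core histone or histone-like, lie on chromosome 17 (13 genes) or chromosome 2 (3 genes), and were placed in the class because they are no replacement histone. Of the 45 replication-dependent genes, 12 encoded H2A, 10 H2B, 11 H3 and 12 H4, and 0 encoded the linker histone H1. The table holds 9 linker H1 genes whose names and descriptions did not match, so they are outside the 51. The 6 replacement genes were H3f3a, H3f3b, H3f3c and AABR07017253.1, all of the H3.3 kind, the H2A.J gene LOC103690002 and the H2A.B gene H2afb3. The table places 31 of the 51 on chromosome 17 between 43422454 and 44841382, 9 on chromosome 2 between 198359754 and 198418029, 5 on chromosome 4, 2 on chromosome 10 and 1 each on chromosomes 7, 13, 15 and X, in coordinates whose genome build the sources used here do not name.

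Histones H2A, H2B, H3 and H4 form the protein core around which DNA is wrapped in the nucleosome, and H1 binds the linker DNA between cores. Replication-dependent histone genes lie in clusters, mostly lack introns, and are transcribed mainly while DNA is copied; their mRNAs end in a stem-loop bound by the protein SLBP in place of a poly-A tail. Replacement histones such as H3.3 are made throughout the cell cycle from polyadenylated mRNAs and are placed on DNA outside replication, and they build up in cells that have stopped dividing, heart muscle cells among them.

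RNA came from cardiomyocytes freed with collagenase type II from hearts of 1-day-old Sprague-Dawley rats and grown in DMEM with foetal bovine serum. Cells of WT genotype were given 3Cl-HBA at 40 µM for 48 h (3 libraries) or the solvent DMSO, also for 48 h and also WT (3 libraries). The series title states its purpose as the effect on cardiomyocytes of activating hydroxycarboxylic acid receptor 1, a lactate receptor. The RNA kit named in the labels removes ribosomal RNA rather than selecting poly-A tails, so transcripts without a tail can be sequenced.

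Libraries held 14607337, 17202191 and 15732803 reads on genes with 3Cl-HBA, and 13942979, 14499065 and 13240800 with DMSO. The labels do not say whether the 3 libraries of a group came from separate cultures, so p-values measure only the spread between these libraries, which may be technical. Heart muscle markers were abundant in every library: the 9 listed genes summed to 26280 to 26630 CPM (read counts scaled to the library total, with TMM factors) with 3Cl-HBA and 26160 to 27720 CPM with DMSO. Markers of other heart cells were present too, with 6 fibroblast genes at 15060 to 15330 CPM with 3Cl-HBA and 14930 to 15820 CPM with DMSO. In bulk RNA, fewer cells of a type and less RNA per cell cannot be told apart.

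No histone gene passed the test between cells given 3Cl-HBA and cells given DMSO. Of the 51 genes, 19 had enough reads to enter edgeR's quasi-likelihood test, 16 of 45 replication-dependent and 3 of 6 replacement genes. The threshold was 0.05 on p adjusted by Benjamini and Hochberg's method over all genes, and 0 of the 19 were called, as were 0 of all 13903 genes tested (0%). At an unadjusted p under 0.05 there were 0 of the 19 histone genes, against 711 of all genes (5.11%, with 2.52% higher and 2.59% lower). DESeq2 called 0 of 18107 genes, with 405 (2.24%) at an unadjusted p under 0.05. Of the 405, 0 were among these 19 histone genes, and histone genes with fewer reads were not counted for that p. The smallest adjusted p of a histone gene was 0.959. Per base of gene, the replacement genes summed to far more than the 45 replication-dependent core histone genes in every library. Linker H1 genes are not among the 45. In FPKM (reads scaled to gene length and library total), the 6 H1 genes of the chromosome 17 cluster averaged 345 in sum. The 45 averaged 139 FPKM in sum and the replacement genes 1179 FPKM.

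The H3.3 gene H3f3b was the most abundant histone gene (ENSRNOG00000003220, chromosome 13, 99091763 to 99101208, minus strand). It had 456, 415 and 432 CPM in the 3Cl-HBA libraries and 426, 417 and 423.5 CPM in the DMSO libraries. The groups overlapped, with both the lowest and the highest library in the 3Cl-HBA group, with a difference of 0.0399 on the log2 scale (95% interval -0.0525 to 0.132, SE 0.0459, adjusted p by edgeR 0.986). Its mean of 1042 FPKM ranked 29 of 22250 genes.

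H3f3a, the second H3.3 gene (ENSRNOG00000006532, chromosome 10, 104573664 to 104575890, minus strand), had 188, 181 and 186 CPM with 3Cl-HBA and 192, 190 and 169 CPM with DMSO. DMSO replicate 3 was the lowest and DMSO replicate 1 the highest, so the treated libraries lay within the DMSO range. The fitted log2 difference was 0.0103 (95% interval -0.0948 to 0.115, SE 0.0522, adjusted p by edgeR 0.998), and its mean was 111 FPKM. The table gives H3f3b the length of its coding sequence alone and H3f3a a length of 1655 bases, so their FPKM do not rest on the same kind of gene model. By their Entrez identifiers, RefSeq's GRCr8 annotation gives these rows the opposite names: the row named H3f3b is H3f3a there, and the row named H3f3a is H3f3b. The table's names are kept here.

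H3f3c (ENSRNOG00000032401, chromosome 7, 94777702 to 94778696), which RefSeq lists as a pseudogene, had 376, 449 and 398 reads with 3Cl-HBA and 408, 374 and 308 reads with DMSO. Scaled to depth it averaged 25.7 ± 0.46 CPM with 3Cl-HBA and 26.1 ± 2.94 CPM with DMSO (SD, n = 3 each, as for all means below), with a log2 fold change of -0.0204 (SE 0.0931, edgeR adjusted p 0.998). All 3 treated libraries lay within the DMSO range. As a near copy of the other H3.3 genes it may share reads with them, since how the authors counted reads that match several places is not given in the sources used here. The other 3 replacement genes had almost no reads, with 2 reads in all libraries together for AABR07017253.1, 1 for LOC103690002 and 0 for H2afb3. A count of 0 allows up to 0.174 to 0.227 CPM, depending on the library, counting error only.

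The 45 replication-dependent genes had low levels, with a median of 0.482 CPM and 32 of them under 1 CPM. Just 2, both encoding H4, reached 5 CPM, and 3 had no read in any library (H2bc1, Hist1h4b and Hist2h4). Of the 51 members, 39 have in the table exactly the coding length of a core histone, which leaves out the stem-loop end of the mRNA. Clustered genes of 1 family are known for near-identical sequences, and 12 of the 51 members share their name with another member. Single values are therefore uncertain where reads could be split between copies. Sums and shares of the class are uncertain too, since reads that match several copies may have been dropped. The table's description and its length or KEGG code gave different families for 8 members, which were placed by KEGG code or length.

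**Figure D1:**
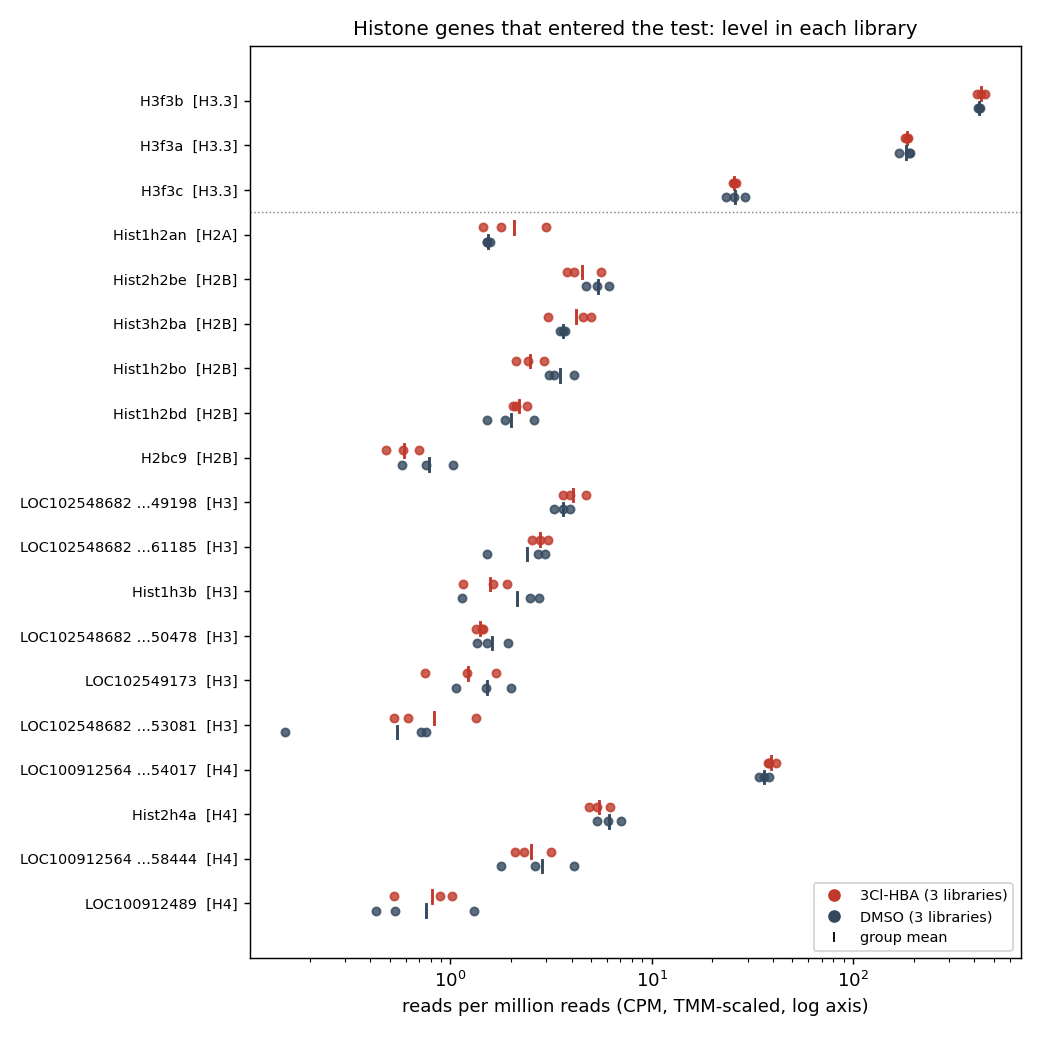
Level of each of the 19 tested histone genes in every library, in CPM on a log axis, with 3Cl-HBA above DMSO in each row and a tick at the group mean. The H3.3 genes H3f3b and H3f3a sit far above the replication-dependent genes below the dotted line, and the groups are apart only for Hist1h2bo.

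Among H4 genes, 1 row held the largest share of the reads of the whole class. LOC100912564 (ENSRNOG00000054017, chromosome 17, 44522140 to 44526583, plus strand; Hist1h4b in RefSeq) had 38.2, 37.7 and 41.5 CPM with 3Cl-HBA and 38.3, 36.1 and 34.2 CPM with DMSO. Its lowest libraries were DMSO replicates 3 and 2 and its highest was 3Cl-HBA replicate 3, but DMSO replicate 1 overlapped the treated range. For this gene the log2 fold change came to 0.11 (95% interval -0.0469 to 0.272, SE 0.079, adjusted p by edgeR 0.984). This gene carried 43.75% to 48.5% of the reads of the 45 replication-dependent genes in a library. Its length of 1296 bases exceeds the coding sequence of an H4 gene, unlike most members.

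Hist2h4a, the next H4 gene (chromosome 4, 170763605 to 170763916), had 72, 106 and 84 reads with 3Cl-HBA and 99, 78 and 80 reads with DMSO. After scaling these were 5.48 ± 0.655 CPM with 3Cl-HBA and 6.17 ± 0.863 CPM with DMSO, overlapping, with a log2 fold change of -0.17 (SE 0.18). A second row named LOC100912564 (ENSRNOG00000058444) had 34, 54 and 33 reads with 3Cl-HBA and 37, 26 and 54 with DMSO, where the highest and lowest libraries were both DMSO once scaled (log2 fold change -0.16, SE 0.28). LOC100912489, the last tested H4 gene, had 15, 9 and 14 reads with 3Cl-HBA and 6, 19 and 7 with DMSO, again overlapping (log2 fold change 0.075, SE 0.49). The other 8 H4 genes had too few reads to be tested, 2 of them with none.

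The H3 genes made during replication, which encode H3.1 and H3.2 type proteins, had mean levels of 0.101 to 3.86 CPM over the 6 libraries. The highest was LOC102548682 (ENSRNOG00000049198), with 69, 62 and 62 reads in the 3Cl-HBA libraries and 46, 53 and 52 reads in the DMSO libraries. Although every raw count was higher with 3Cl-HBA, the treated libraries were also deeper, and the scaled levels of 4.09 ± 0.553 CPM with 3Cl-HBA and 3.625 ± 0.325 CPM with DMSO overlapped (log2 fold change 0.17, SE 0.22, edgeR adjusted p 0.986). The copy ENSRNOG00000061185 had 2.79 ± 0.247 CPM with 3Cl-HBA and 2.40 ± 0.773 CPM with DMSO (log2 fold change 0.21, SE 0.27).

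Hist1h3b had 17, 28 and 30 reads with 3Cl-HBA and 16, 40 and 33 reads with DMSO, a log2 fold change of -0.44 (SE 0.33, unadjusted p 0.196, edgeR adjusted p 0.984). DMSO replicate 1 was the lowest of the 6 libraries and DMSO replicate 2 the highest, so the groups overlapped. Among the 19 tested genes of the 51, the largest change by size was that of the LOC102548682 copy on chromosome 2 (ENSRNOG00000053081). It had 9, 9 and 21 reads with 3Cl-HBA and 10, 11 and 2 reads with DMSO. Its log2 fold change of 0.58 had an SE of 0.53 and a 95% interval of -0.486 to 1.65. That difference rested on 1 high treated library and 1 low DMSO library. The copy ENSRNOG00000050478 and LOC102549173 completed the tested H3 genes, with log2 fold changes of -0.19 (SE 0.34) and -0.31 (SE 0.37) and overlapping groups. Over the 6 tested H3 genes, 3 were above 0 and 3 below, with a median of -0.0081.

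The H2B genes gave the 1 tested member whose groups did not overlap. Hist1h2bo (chromosome 17, 44756555 to 44793927) had 2.11, 2.92 and 2.42 CPM with 3Cl-HBA and 3.29, 4.13 and 3.11 CPM with DMSO. All treated libraries lay below all DMSO libraries, with means of 2.48 ± 0.409 CPM with 3Cl-HBA and 3.51 ± 0.545 CPM with DMSO. This is a log2 fold change of -0.49 (95% interval -0.992 to 0.003, SE 0.25, unadjusted p 0.0513, adjusted p by edgeR 0.959), so it did not pass. Groups were apart in 1 of 19 tested histone genes, beside 10.5% of all genes tested (5.24% above and 5.21% below). The row spans other histone genes, among them the H1 gene H1f5 on the opposite strand. Its length in the table is 1035 bases, and whether these overlap the other genes was not checked. With no strand setting given, whether reads are shared is not known.

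Hist2h2be had 56, 96 and 65 reads with 3Cl-HBA and 75, 89 and 62 reads with DMSO. The scaled levels of 4.52 ± 0.957 CPM with 3Cl-HBA and 5.395 ± 0.714 CPM with DMSO overlapped (log2 fold change -0.25, SE 0.20, 95% interval -0.648 to 0.147). Hist3h2ba, which lies apart from the main clusters on chromosome 10, had 73, 52 and 72 reads with 3Cl-HBA and 51, 51 and 49 reads with DMSO (log2 fold change 0.21, SE 0.22). Its treated libraries, at 4.20 ± 1.02 CPM, spread more than the DMSO libraries, at 3.62 ± 0.104 CPM, and the groups overlapped. Of the remaining tested H2B genes, Hist1h2bd had a log2 fold change of 0.12 (SE 0.30) and H2bc9 one of -0.42 (SE 0.49).

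H2A was the family with the fewest reads. Hist1h2an, the only one of 12 that entered the test (chromosome 17, 44520537 to 44520929; Hist1h2ac in RefSeq), had 44, 25 and 28 reads with 3Cl-HBA and 22, 22 and 20 reads with DMSO. 3Cl-HBA replicate 1 stood well above the other libraries, while 3Cl-HBA replicate 2, at 1.46 CPM, lay below all 3 DMSO libraries. The means were 2.08 ± 0.811 CPM with 3Cl-HBA and 1.53 ± 0.034 CPM with DMSO, a log2 fold change of 0.43 (95% interval -0.237 to 1.09, SE 0.33, adjusted p by edgeR 0.984). The other 11 had 1 to 15 reads each over all 6 libraries.

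**Figure D2:**
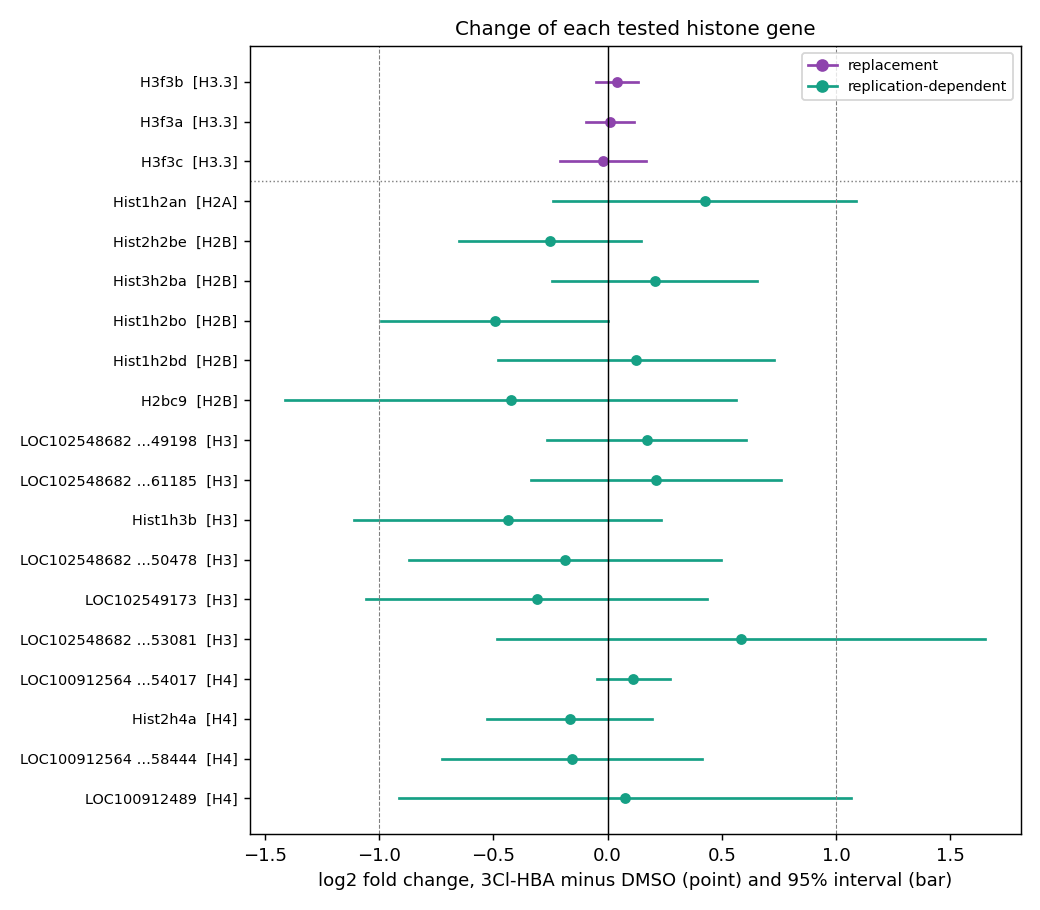
Log2 fold change of the 19 tested histone genes, 3Cl-HBA minus DMSO, as points with 95% intervals as bars; dashed lines mark 2-fold. Every interval includes 0, and those of the 3 replacement genes are much narrower than those of most replication-dependent genes.

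The precision differed between the classes with their depth. The 3 replacement genes had SEs of 0.0459 to 0.0931 on the log2 scale, and the 95% intervals of all 3 lay inside 1.5-fold in either direction. For the 16 tested replication-dependent genes SEs were 0.0792 to 0.531, and 10 intervals lay inside 2-fold and 2 inside 1.5-fold, against 92.2% and 80.8% of all genes tested. The intervals of the other 6 reached past 2-fold, so a change of that size lay within them. Counting error alone was 4.22% to 31.4% of the mean for the 16 genes, and 0 of the 16 varied over the 6 libraries by more than 2 times that error. Fold changes were above 0 in 8 of 16 replication-dependent and 2 of 3 replacement genes, beside 49.8% of all genes tested, and the medians were -0.0404 and 0.0103, beside -0.0005 over all genes. Among the 8 tested genes with a clustered-histone name or description 3 were above 0, and their median was -0.2078.

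The 32 members left out by the filter on low counts had 0 to 56 reads over the 6 libraries, and 28 had at least 1 read. Together these 28 had 313 reads with 3Cl-HBA and 274 with DMSO, and groups were apart in 3 of them (2 above and 1 below), beside 304 of all 4204 untested genes with a read (7.23%), which is near that background. Fitted without the filter, where 2 of all 18107 genes (0.011%) and 0 histone genes were called, 1 of them had an unadjusted p under 0.05, beside 5.27% of the genes in that fit. It was H3c1, an H3 gene of the chromosome 17 cluster named here after its values were seen, with 1, 2 and 0 reads in the 3Cl-HBA libraries and 9, 4 and 5 reads in the DMSO libraries. All treated libraries lay below all DMSO libraries, but the fitted log2 fold change of -2.77 had a 95% interval of -4.90 to -0.652 and an edgeR adjusted p of 0.85, so it was not called. LOC102549061, an H2B gene also named after its values were seen, went the other way, with 13, 8 and 14 reads in the 3Cl-HBA libraries and 7, 1 and 5 reads in the DMSO libraries, overlapping once scaled (unadjusted p 0.0555, edgeR adjusted p 0.93).

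H2A and H2B genes often lie head to head, sharing the stretch between their starts as a promoter for both. In 6 such pairs both genes were members, with 202 to 319 bases between the table's gene models, and their reads were far from equal. Hist2h2be had 443 reads over the 6 libraries against 1 for its neighbour H2ac20, and Hist1h2bo had 266 against 15 for hist1h2ail2. Hist1h2an went the other way, with 161 reads against 61 for the H2B gene H2bc9. In 4 of the 6 pairs the H2B gene had more reads than the H2A gene. How much of this comes from reads shared with copies elsewhere was not tested.

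**Figure D3:**
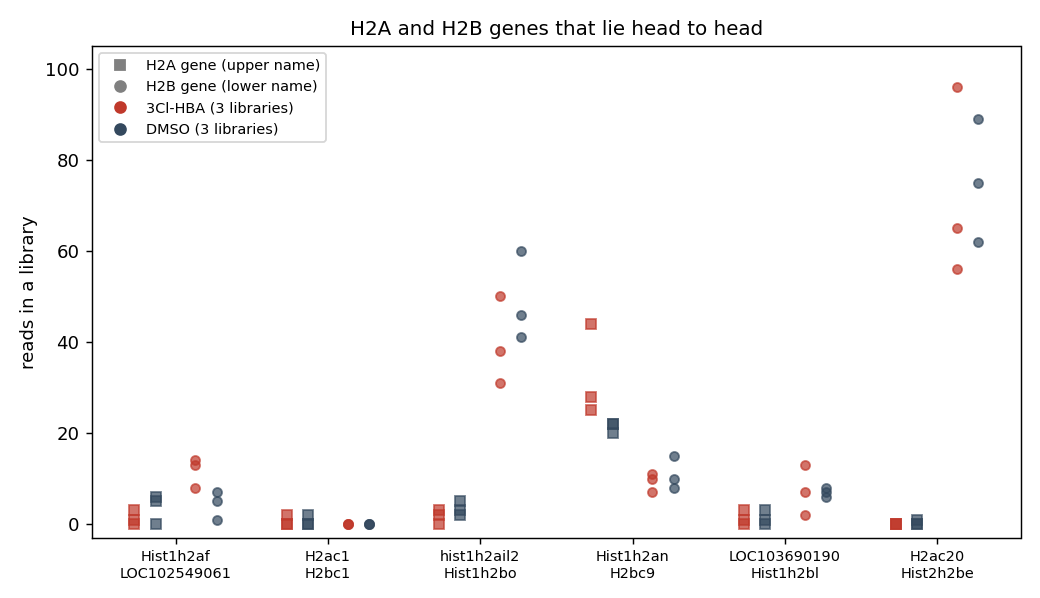
Reads in each library for the 6 head-to-head pairs of an H2A gene (squares, upper name) and an H2B gene (circles, lower name), with 3Cl-HBA left of DMSO. Hist2h2be and Hist1h2bo have 31 to 96 reads in a library where their H2A partners have 0 to 5, and Hist1h2an exceeds H2bc9.

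Promoters of 300 bases (250 before to 50 after the annotated start) from RefSeq's GRCr8 annotation were matched to 31 members through Entrez identifiers. The first sequence belongs to the Hist2h2be side of the most unequal pair, and the H2ac20 window overlaps it on the other strand. The others are the most abundant H4 gene and the 2 main H3.3 genes, shown so that windows of the most abundant members stand beside it. Capitals mark TATAAA (the TATA box), CCAAT (the CCAAT box) and ATTTGCAT (the octamer, known to be bound by POU2F1), each on either strand; 2 matches of TATAAA on opposite strands can overlap, as in TTTATAAA.
Hist2h2be, chr2:186469202-186469501, plus strand: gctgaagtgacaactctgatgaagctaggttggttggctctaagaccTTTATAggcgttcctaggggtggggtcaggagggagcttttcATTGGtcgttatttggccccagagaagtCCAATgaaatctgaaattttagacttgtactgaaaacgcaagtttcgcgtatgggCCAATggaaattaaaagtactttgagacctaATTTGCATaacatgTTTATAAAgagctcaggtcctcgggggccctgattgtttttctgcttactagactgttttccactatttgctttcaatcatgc
LOC100912564 (ENSRNOG00000054017), chr17:47175996-47176295, plus strand: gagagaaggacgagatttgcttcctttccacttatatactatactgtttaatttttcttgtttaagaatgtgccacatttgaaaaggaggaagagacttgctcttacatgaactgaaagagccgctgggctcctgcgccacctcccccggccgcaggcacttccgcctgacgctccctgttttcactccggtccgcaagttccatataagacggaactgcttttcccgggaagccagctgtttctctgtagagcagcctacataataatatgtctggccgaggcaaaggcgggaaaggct
H3f3a (H3f3b in RefSeq), chr10:101757587-101757886, minus strand: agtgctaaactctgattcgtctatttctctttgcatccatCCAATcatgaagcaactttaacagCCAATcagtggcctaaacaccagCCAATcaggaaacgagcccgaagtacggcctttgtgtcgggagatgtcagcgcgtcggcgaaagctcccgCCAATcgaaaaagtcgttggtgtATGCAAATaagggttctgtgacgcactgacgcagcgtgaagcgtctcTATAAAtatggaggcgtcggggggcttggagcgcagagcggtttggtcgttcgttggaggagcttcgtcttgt
H3f3b (H3f3a in RefSeq), chr13:95076646-95076945, minus strand: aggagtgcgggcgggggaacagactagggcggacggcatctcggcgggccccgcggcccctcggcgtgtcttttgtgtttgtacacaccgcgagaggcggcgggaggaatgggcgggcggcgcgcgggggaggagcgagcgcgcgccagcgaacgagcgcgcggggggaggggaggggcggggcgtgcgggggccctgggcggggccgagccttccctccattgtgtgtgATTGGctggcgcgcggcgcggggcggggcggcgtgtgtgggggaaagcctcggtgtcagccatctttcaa

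The Hist2h2be window held 3 matches of TATAAA, 3 of CCAAT and 1 of the octamer, which began at position -47 with the start counted as 0. H3f3a had 4 matches of CCAAT, 1 octamer at -70 and 1 TATAAA at -23. H3f3b, the most abundant, had a single CCAAT at -20 in a window of 74.7% G and C, against 43.0% for Hist2h2be. The H4 window held none of the 3. Over the 28 replication-dependent promoters, 17 (60.7%) held TATAAA, 26 (92.9%) CCAAT and 10 (35.7%) the octamer, beside 14.3%, 37.7% and 1.64% of all 27457 RefSeq promoters of that length. Families of these promoters follow the KEGG code. The H3 rows LOC102549173 and Hist1h3b were matched by Entrez identifier to genes that RefSeq names H4cl1 and Hist1h2ail1, so counts for H3 promoters are uncertain. The octamer was in 6 of 10 H2B and 4 of 12 H2A promoters and in 0 of 4 H3 promoters. Both genes held it in the head-to-head pairs H2ac20 and Hist2h2be, H2ac1 and H2bc1, and Hist1h2af and LOC102549061. Windows of such partners can overlap, so 1 match may be counted for both genes. The promoter counts given here are therefore not counts of separate sequences. Genes that reached the test were not the ones with more matches: 6 of 11 tested and 11 of 17 untested replication-dependent genes had TATAAA, and 2 of 11 and 8 of 17 had the octamer. A match is a description of these letters and not a site in use.

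Summed levels of the replication-dependent genes depended on which genes were counted in the class. All 45 summed to 80.6, 81.35 and 85.55 CPM with 3Cl-HBA and 83.8, 82.6 and 77.1 CPM with DMSO. Means were 82.5 ± 2.67 CPM with 3Cl-HBA and 81.15 ± 3.54 CPM with DMSO, a log2 ratio of 0.0238, and the groups overlapped. Leaving out the most abundant H4 gene turned the sign, with 43.4 ± 0.874 CPM with 3Cl-HBA and 45.0 ± 1.80 CPM with DMSO, a log2 ratio of -0.0523, still overlapping. The 29 genes with a clustered-histone name or description were lower in every treated library, with 25.2, 26.65 and 27.1 CPM with 3Cl-HBA and 28.4, 29.65 and 28.0 CPM with DMSO. Their means were 26.3 ± 0.995 CPM with 3Cl-HBA and 28.7 ± 0.851 CPM with DMSO, a log2 ratio of -0.1243, with groups apart and no test made of the sum. The 29 include Hist1h2bo, at 2.48 CPM with 3Cl-HBA and 3.51 CPM with DMSO, whose span holds other histone genes. The sum of the 29 without Hist1h2bo is not given. The other 16 genes, which include the most abundant H4 gene, summed to 56.2 ± 1.99 CPM with 3Cl-HBA and 52.45 ± 3.16 CPM with DMSO, a log2 ratio of 0.0989, and overlapped. This split follows the table's labels: RefSeq gives some of the 16 a clustered-histone name, such as Hist1h4b for that H4 gene.

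Replacement genes summed to 669, 622 and 643 CPM with 3Cl-HBA and 646.5, 633 and 616 CPM with DMSO. These overlapped, with means of 645 ± 23.6 CPM with 3Cl-HBA and 632 ± 15.1 CPM with DMSO, a log2 ratio of 0.0293. Per length, replication-dependent genes summed to 139 ± 3.01 FPKM with 3Cl-HBA and 140.1 ± 5.26 FPKM with DMSO, and replacement genes to 1193 ± 58.0 FPKM with 3Cl-HBA and 1165 ± 16.4 FPKM with DMSO. By family, the 12 H4 genes of the 45 summed to 66.9 ± 2.04 FPKM with 3Cl-HBA and 67.0 ± 2.86 FPKM with DMSO, and the 12 H2A genes to 7.64 ± 2.72 FPKM with 3Cl-HBA and 6.55 ± 1.29 FPKM with DMSO. The H2B genes summed to 32.1 ± 1.49 FPKM with 3Cl-HBA and 33.4 ± 3.53 FPKM with DMSO, and the H3 genes to 32.1 ± 1.94 FPKM with 3Cl-HBA and 33.2 ± 3.23 FPKM with DMSO. Groups overlapped in every family.

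**Figure D4:**
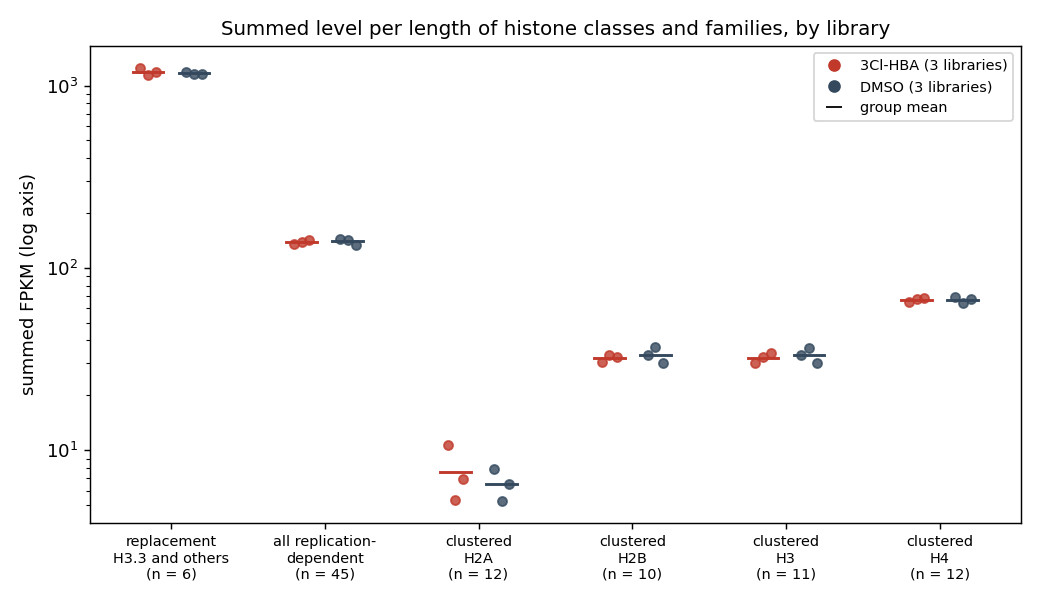
Summed FPKM on a log axis for the replacement genes, the replication-dependent genes and 4 families of the replication-dependent class, 1 point per library with a bar at the group mean, 3Cl-HBA left of DMSO. Replacement genes lie near 1193 and 1165 FPKM and replication-dependent genes near 139 and 140.1 FPKM, with groups that overlap throughout.

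Of the reads of the 51 members, replication-dependent genes took 10.75%, 11.6% and 11.7% in the 3Cl-HBA libraries. In the DMSO libraries the shares were 11.5%, 11.5% and 11.1%. The 22 histone genes outside the 51 are not in that total. They averaged 7900 reads per library, beside 10710 for the 51. The exact 95% binomial intervals of these shares spanned 10.2% to 12.3% with 3Cl-HBA and 10.5% to 12.2% with DMSO, counting error only. Within H3, the replication-dependent genes made up 2.35%, 2.75% and 2.79% of the summed FPKM with 3Cl-HBA and 2.74%, 3.05% and 2.53% with DMSO. The low share of replication-dependent H3 was thus seen in all 6 libraries. Whether reads that match several copies were dropped is not given. Such dropping could lower this share in every library alike, so the 6 libraries do not check it.

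Genes that make and process histone mRNA had similar levels in both groups. Of 16 listed genes, 16 were tested and 0 called, with 7 above 0 and a median of -0.001 on the log2 scale. Groups were apart above in 1 and below in 0 of the 16, beside 5.24% and 5.21% of all genes. Slbp, whose product binds the histone stem-loop, had 44.3 ± 2.68 CPM with 3Cl-HBA and 42.8 ± 2.01 CPM with DMSO (log2 fold change 0.0479, SE 0.0753). Npat, the co-activator of clustered histone genes, had 67.9 ± 2.61 CPM with 3Cl-HBA and 66.3 ± 5.30 CPM with DMSO (log2 fold change 0.0352). Lsm10 and Lsm11, subunits of the U7 particle that cuts histone precursors, had 8.84 ± 0.492 and 8.46 ± 0.448 CPM with 3Cl-HBA and 8.68 ± 1.83 and 9.13 ± 1.28 CPM with DMSO. Cstf2, a cleavage factor subunit, had 48.8 ± 1.23 CPM with 3Cl-HBA and 44.1 ± 1.22 CPM with DMSO, with groups apart (log2 fold change 0.14, unadjusted p 0.0512, edgeR adjusted p 0.959).

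Histone chaperones, which carry histones to DNA, gave 0 calls among 25 tested. Of the 25, 17 were above 0, beside 49.8% of all genes, and the median was 0.032. At an unadjusted p under 0.05 by edgeR there were 2 of the 25, beside 5.11% of all genes. Groups were apart above in 1 and below in 2 of the 25, beside 5.24% and 5.21% of all genes. Npm1 had 503.6 ± 9.15 CPM with 3Cl-HBA and 464 ± 28.6 CPM with DMSO (log2 fold change 0.12, unadjusted p 0.0149, edgeR adjusted p 0.959), and its groups overlapped. Ubn1, a subunit of the HIRA complex that deposits H3.3, had 126 ± 3.75 CPM with 3Cl-HBA and 138 ± 3.21 CPM with DMSO, with groups apart (log2 fold change -0.14, unadjusted p 0.0113, edgeR adjusted p 0.959). Hira itself was counted at 2.11 ± 0.451 CPM with 3Cl-HBA and 2.91 ± 0.238 CPM with DMSO (log2 fold change -0.47, SE 0.27, edgeR adjusted p 0.9745), groups apart, and a HIRA-like copy of it in the table may share reads. Nap1l1, an H2A and H2B chaperone, had 405 ± 12.6 CPM with 3Cl-HBA and 385 ± 14.96 CPM with DMSO, groups apart. Asf1b and the CAF-1 subunit Chaf1a, which serve DNA replication, had log2 fold changes of 0.0547 and 0.0641.

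Genes of S phase, the phase in which clustered histone mRNA is made, and of mitosis also gave 0 calls. Of 24 listed genes 23 were tested, with 20 above 0 and a median of 0.0652 on the log2 scale, beside -0.0005 over all genes. Earlier results of these data already showed such genes on this side, so the count is no independent support for a direction. At an unadjusted p under 0.05 there was 1 of the 23, beside 5.11% of all genes, and groups were apart above in 2, beside 5.24% of all genes. Both encode subunits of the replication helicase and are named after their values were seen. Mcm3 had 57.6 ± 2.33 CPM with 3Cl-HBA and 50.8 ± 1.08 CPM with DMSO (log2 fold change 0.18, unadjusted p 0.0122, edgeR adjusted p 0.959). For Mcm2 the levels were 67.55 ± 2.89 CPM with 3Cl-HBA and 63.9 ± 1.53 CPM with DMSO (log2 fold change 0.08, unadjusted p 0.218, edgeR adjusted p 0.984). Mki67, a proliferation marker, had 171 ± 15.7 CPM with 3Cl-HBA and 172.5 ± 7.41 CPM with DMSO, and the replication clamp gene Pcna had 68.1 ± 3.31 CPM with 3Cl-HBA and 68.3 ± 6.12 CPM with DMSO. Top2a, the topoisomerase of dividing cells, had 126.5 ± 0.795 CPM with 3Cl-HBA and 125 ± 6.53 CPM with DMSO. Transcripts of dividing cells were thus counted in all 6 libraries.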

How the data were processed

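Total RNA of 6 libraries of rat cardiomyocytes was sequenced on an Illumina instrument after preparation with a KAPA RiboErase kit, per the labels' protocols, where the authors' use of DESeq2 is also stated. Not given in the sources used here are the aligner, counting program, strand setting, handling of reads with several matches, genome build and annotation. The deposited table gives whole-number read counts per gene and library, per the file headers. FPKM stand beside them, computed by the authors from count, gene length and library total (relative gap at most 8.2e-08 on recomputing).

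Members were found by name and description, and the members and lists were chosen with earlier results of these data known. The plan of the work defined the replication-dependent class by a clustered-histone name or description, which 29 members have; the class used here is wider, all 45 members that are no replacement histone (names starting H3f3 or H2af, or H3.3 or H2A.J in the description), and the sum and median are given for both. Families came from the KEGG code (35 members), the gene length (14) or the description (2). Of 35 Entrez identifiers, 34 matched RefSeq's GRCr8 table, used for names and promoters. Where several rows shared the name of a listed gene, the row with most reads was used; 0 of the 5 listed other RNAs without a poly-A tail were matched, and they were not analysed here.

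Counts were tested with edgeR 4.0.16 in R 4.3.3, using TMM scaling, filterByExpr (minimum count 10), glmQLFit in its robust form and glmQLFTest with no block, over 13903 genes, with Benjamini-Hochberg adjustment over all of them and a threshold of 0.05. Fold changes are 3Cl-HBA minus DMSO on the log2 scale. An exact permutation test of 3 against 3 cannot reach that threshold and was not used. FPKM were described and not tested. The procedure was tested on simulated counts. Alternatives were DESeq2 1.42.0, limma-voom (limma 3.58.1), other scalings, no filter, a replicate block, removal of each library's trend with gene length, and leaving out each library. No library pair agreed within sampling noise (chi-square per degree of freedom 2.78 to 5.14).

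Genes were named by rule: the 3 tested replication-dependent members of highest FPKM per family, all tested replacement genes, the 3 tested members per direction with the smallest p, the most abundant and the smallest-p members of 2 lists, and a fixed set of histone-processing, chaperone and cell cycle genes. Other names were chosen after their values were seen: those of members with few reads, of Mcm2 and Mcm3, of head-to-head pairs and of histone genes outside the rule.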

Additional observations from a re-analysis of the deposited data

How the results depend on the processing

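Histone genes called stayed at 0 under all 15 settings, the main one included, with a smallest edgeR adjusted p of 0.684, reached by Hist1h2bo without DMSO replicate 3. Over all genes the count of calls was 0, and 2 when genes with low counts were kept; with 1 library left out it ranged from 0 to 8 (8 without DMSO replicate 3, 1 without DMSO replicate 2, 2 and 3 without 3Cl-HBA replicates 2 and 3). Replicate numbers did not pair the libraries (correlations of same-numbered deviations -0.0692, -0.0438 and -0.0447), and the replicate block gave 0 calls. With the class held to the 29 members with a clustered-histone name or description, as planned, but run as an alternative after the data were seen, the log2 ratio of summed replication-dependent levels was -0.1243 and the median log2 fold change -0.2078, against 0.0238 and -0.0404 for all 45. The ratio for all 45 moved to -0.0523 without the most abundant member of the 45, and ranged from -0.0115 to 0.0473 with 1 library left out. The ratio of replacement genes ranged from 0.0017 to 0.0544 with 1 library left out. Median log2 fold changes ranged from -0.0838 to 0.0238 (replication-dependent) and from -0.0475 to 0.0454 (replacement) with 1 library left out.

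Of 33 named genes, 13 changed sign under some alternative, and none passed the threshold under any. With length trends removed, H3f3a was at -0.006 and Mki67 at 0.0442, and with the replicate block added they were at -0.0036 and 0.0433; the cause was not tested. With 1 library left out, ranges of log2 fold change were -0.0394 to 0.3695 for Hist1h2bd, -0.0253 to 0.3932 for LOC102548682 (ENSRNOG00000061185), -0.4059 to 0.1933 for LOC100912564 (ENSRNOG00000058444), -0.0475 to 0.0414 for H3f3a, -0.0959 to 0.067 for H3f3c, -0.0511 to 0.0061 for Cpsf3, -0.0156 to 0.0992 for Npat, -0.1394 to 0.1354 for Lsm10, -0.1835 to 0.0107 for Lsm11, -0.0032 to 0.1371 for Asf1b, -0.0695 to 0.0606 for Mki67, -0.0781 to 0.0387 for Pcna and -0.0213 to 0.0562 for Top2a. Depth limits the replication-dependent genes: 29 of 45 had a mean under 10 reads per library.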

Other observations

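The table also holds 22 histone genes that the name and description rule leaves out, and they were added after the files were seen. Of these, 12 were tested, 0 were called by edgeR, 0 had an unadjusted p under 0.05, DESeq2 also called 0, and 6 were above 0. The linker histone gene H1f2, which lies in the chromosome 17 cluster (43639749 to 43640387), had 221, 214 and 201 CPM with 3Cl-HBA and 194, 227 and 214 CPM with DMSO. Its mean of 332 FPKM exceeds the 139 FPKM of the 45 replication-dependent core histone genes together, and its log2 fold change was 0.0013 (SE 0.055). H2ax, the variant marked at DNA breaks, had 26.8 ± 0.418 CPM with 3Cl-HBA and 24.3 ± 0.816 CPM with DMSO, with groups apart (log2 fold change 0.15, unadjusted p 0.113), as is the case above for 5.24% of all genes. H2az1, an H2A variant found at gene starts, had 114 ± 17.9 CPM with 3Cl-HBA and 116 ± 1.39 CPM with DMSO. Macroh2a1, an H2A variant with an added globular domain, had 68.5 ± 3.97 CPM with 3Cl-HBA and 74.8 ± 3.98 CPM with DMSO (log2 fold change -0.13, unadjusted p 0.0557, edgeR adjusted p 0.959). All 22 genes summed to 530 ± 29.7 CPM with 3Cl-HBA and 534.5 ± 11.1 CPM with DMSO, with overlapping groups.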
